A study of Mus musculus with 12 samples.

Results

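A1bg, Atp6v0d2, Hao2 and Acot3 are 4 liver genes that were picked by name from earlier results of these data, as genes outside drug metabolism with a strong difference between the sexes. They are 4 of the 24527 gene symbols in the count table, and all 4 were among the 13204 genes that passed the filter on low counts. Because their level in males against females was what chose them, that difference is given here as a description with no test. The effect of conception by in vitro fertilization (IVF) within each sex was tested, since it was not itself what chose the genes. It rests on the same libraries, so it is not free of the choice. This holds most for Atp6v0d2, whose log2 difference of males against females was -6.01 after IVF and -1.84 after natural conception.

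The series measured messenger RNA in whole liver from 39-week-old mice, all offspring of CF1 mothers and B6SJL fathers. The 4 groups, with 3 libraries each, were females conceived naturally, females conceived by IVF, males conceived naturally and males conceived by IVF. Eggs and sperm of the same strains were joined by a protocol of the Jackson Laboratory for the IVF groups, and no transgene, deletion or drug is named for any group. Each library has its own number in the labels, and 1 IVF female and 1 IVF male share the part of it before the point. The labels give no meaning for these numbers and do not say which animals shared a litter, so p-values measure the spread between these samples.

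The members belong to different branches of liver biology. A1bg encodes alpha-1B-glycoprotein, a secreted plasma protein built from immunoglobulin-like domains. Atp6v0d2 encodes the d2 form of a subunit in the membrane sector of the vacuolar proton pump (V-ATPase), which acidifies lysosomes and is best known in osteoclasts and macrophages, while its sister Atp6v0d1 encodes the widespread form. Hao2 encodes a peroxisomal flavoenzyme that oxidizes 2-hydroxy acids and releases hydrogen peroxide. Acot3 encodes a peroxisomal thioesterase that splits fatty acyl-CoA into free fatty acid and coenzyme A. In rodent liver many sex differences follow the pattern of growth hormone release, pulsed in males and more continuous in females, which acts through the transcription factor STAT5b. CUX2, made mainly in female liver, and BCL6, made mainly in male liver, are further regulators on that route.

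The DNA just before the start of transcription is shown because the members share a direction of sex difference, so that their start regions can be compared. RefSeq (GRCm38.p6) gave a start region for 3 of the 4 members, A1bg, Hao2 and Acot3, and the 250 bases before each start were searched on both strands. For A1bg this stretch lies inside the gene span of another annotation, GENCODE M21, which on this minus strand begins at 60923012. The A1bg stretch is thus upstream of the RefSeq start but downstream of the outermost GENCODE start. In the A1bg line the capitals mark, from left to right, a match to the HNF6 or CUX2 letters ATTGATTA and a match to the STAT5 letters TTCNNNGAA; the Hao2 and Acot3 lines hold no capitals because none of the letters searched occurred there.
A1bg, chr15:60921271-60921520, minus strand: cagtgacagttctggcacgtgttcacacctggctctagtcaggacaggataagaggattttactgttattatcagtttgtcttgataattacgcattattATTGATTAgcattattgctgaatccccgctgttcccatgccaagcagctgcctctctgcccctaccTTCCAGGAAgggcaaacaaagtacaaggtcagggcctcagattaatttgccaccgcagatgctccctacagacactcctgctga
Hao2, chr3:98893231-98893480, minus strand: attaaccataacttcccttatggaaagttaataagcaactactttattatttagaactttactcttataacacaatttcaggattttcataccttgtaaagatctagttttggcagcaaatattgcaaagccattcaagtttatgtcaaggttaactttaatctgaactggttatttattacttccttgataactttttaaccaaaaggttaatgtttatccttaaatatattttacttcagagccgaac
Acot3, chr12:84051894-84052143, plus strand: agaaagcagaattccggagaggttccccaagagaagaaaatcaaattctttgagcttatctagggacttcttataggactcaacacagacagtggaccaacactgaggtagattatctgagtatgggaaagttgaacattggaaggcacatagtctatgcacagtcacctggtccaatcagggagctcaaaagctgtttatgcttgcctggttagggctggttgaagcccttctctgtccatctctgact

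In the A1bg sequence the STAT5 letters begin at position -84 from the RefSeq start and read TTCCAGGAA, and the HNF6 or CUX2 letters begin at -150. The 2 matches do not overlap. STAT5 letters were present in 7.02% of 32851 promoters of the same length, and ATTGATTA in 0.557%. The other letters searched were ATCGAT for HNF6 or CUX2 (0.728% of promoters), the direct repeat bound by HNF4 or PPAR in a strict form (0.0335%) and with 1 base left free (0.0822%), the HNF1 palindrome (0.00913%), TCACGTGA for the E-box of MITF and TFEB (0.785%) and the estrogen response element (0.0639%). A second Acot3 start 7 bases further on also held none of them. G and C made up 47.2% of the A1bg stretch, 45.2% of the Acot3 stretch and 28.4% of the Hao2 stretch. A match is a description of letters and was not measured as a binding site in these samples.

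The deposited values were whole counts of reads per gene, between 6826534 and 27832271 per library. Levels are given as CPM, counts scaled to a common library total with TMM factors, and 3 counts corresponded to 0.119 to 0.445 CPM depending on the library. The shallowest were replicate 1 of the IVF females, at 6826534, and replicate 2 of the natural females, at 8056230. Liver identity and sex matched the labels: 8 hepatocyte markers summed to between 80800 and 119000 CPM in every library, Xist was at 822 to 1340 CPM in females and at most 1.24 in males, and Y-linked genes had 2396 to 4257 counts in males and 0 to 2 in females.

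**Figure D1:**
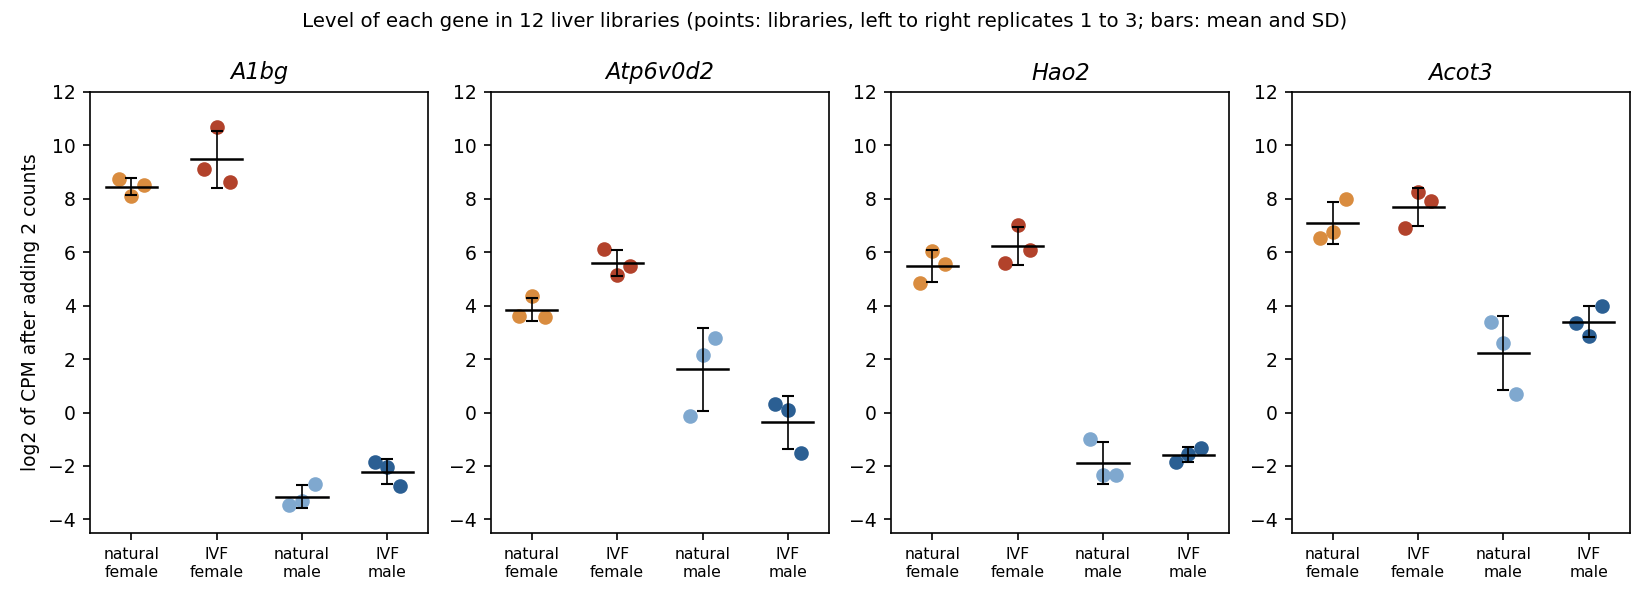
Level of A1bg, Atp6v0d2, Hao2 and Acot3 in each of the 12 libraries, as log2 of CPM after adding 2 counts, with 1 point per library (replicates 1 to 3 from left to right) and lines for the mean and SD of each group of 3. Every female point lies above every male point in all 4 panels, and for Atp6v0d2 the IVF females (35.3 to 69.2 CPM) also lie above the natural females (11.7 to 20.1).

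A1bg was abundant in female liver and close to absent from male libraries. The gene lies on the minus strand at chr15:60896859-60923012 (GRCm38, GENCODE M21), with 7 exons in its longest transcript. In natural females replicates 1 to 3 had 424, 275 and 365 CPM, and in IVF females 562, 1640 and 394. Natural males had 0, 0 and 2 counts, and IVF males 2, 3 and 1. IVF female replicate 2 stood far above the other females, the remaining females formed 1 range, and all 6 male libraries were at or under the floor of 3 counts. The female mean was 355 ± 75.2 CPM (SD, n = 3) after natural conception and 867 ± 679 (SD, n = 3) after IVF. Set against the pooled male counts, female A1bg was 11900 times the male level after natural conception (95% exact Poisson interval 3300 to 98500, from 2 male counts). After IVF the ratio was 7930 (3640 to 21600, from 6 male counts). These intervals cover counting error only, since reads copied by PCR without molecular tags need not come from separate molecules. An antisense gene, 4930402D18Rik, overlaps A1bg, and 11% of the 50-base words of A1bg transcripts also occur in it on the other strand. Whether counting used strand is not given in the sources used here, so reads of the antisense gene could be counted to A1bg.

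Hao2 followed the same outline at a lower level. It lies on the minus strand at chr3:98874521-98893239 with 9 exons, overlaps no other annotated gene and shares no 50-base word with one. Natural females had 28.8, 66.4 and 47.4 CPM in replicates 1 to 3, and IVF females had 48.2, 128 and 67. Natural males had 9, 2 and 3 counts, and IVF males 2, 5 and 6. All females were high, with IVF replicate 2 the highest, and every male library was within a few counts of 0. The group means were 47.5 ± 18.8 CPM in natural females, 81.2 ± 41.8 in IVF females, 0.21 ± 0.175 in natural males and 0.228 ± 0.083 in IVF males (SD, n = 3 each). Female Hao2 was 228 times the pooled male level after natural conception (95% exact Poisson interval 136 to 417) and 343 times after IVF (200 to 643).

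Acot3 was higher in females too, but males kept a clear level. It lies on the plus strand at chr12:84052144-84060402, with 4 exons in its longest transcript. Natural females had 93.4, 107 and 256 CPM, and IVF females had 118, 307 and 242. In natural males the values were 10.5, 5.99 and 1.54 CPM, from 229, 120 and 39 counts. IVF males were at 10.1, 7.13 and 16 CPM, from 147, 145 and 319 counts. The lowest female library was more than the highest male library in both modes of conception, and the lowest level of all was in natural male replicate 3. Means were 152 ± 90 CPM in natural females and 6 ± 4.46 in natural males, a 25.4-fold difference, and 222 ± 95.7 in IVF females and 11.1 ± 4.49 in IVF males, a 20.1-fold difference (SD, n = 3 each; folds are of the fitted values). Of the 50-base words of Acot3 transcripts, 21.3% occur in other genes, including Gm49366 (11%), Acot5 (5.98%), Acot1 (4.94%) and Acot4 (3.49%). How reads with several possible genes were counted is not given in the sources used here, so the Acot3 level is uncertain to that extent.

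Atp6v0d2 had the smallest sex difference after natural conception and a large one after IVF. It lies on the minus strand at chr4:19876841-19922605 with 8 exons, overlaps no annotated gene and shares no 50-base word with one. Natural females had 12.3, 20.1 and 11.7 CPM, and IVF females had 69.2, 35.3 and 45.1. Natural males had 0.822, 4.39 and 6.92 CPM, from 18, 88 and 175 counts, and IVF males had 1.1, 0.984 and 0.25 CPM, from 16, 20 and 5 counts. The groups therefore stood in the order IVF females, natural females, natural males and IVF males, and only the 2 male groups overlapped, through natural male replicate 1. The means were 49.8 ± 17.4, 14.7 ± 4.71, 4.04 ± 3.06 and 0.778 ± 0.46 CPM in that order (SD, n = 3 each). Female Atp6v0d2 was 3.64 times the male mean after natural conception and 64.1 times after IVF.

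In all 4 of the 4 members every male library was below every female library after natural conception, and likewise after IVF. Of all genes tested, 9.85% had that pattern after natural conception and 10.1% after IVF, but since the members were chosen on this contrast nothing is read from the count. Per kilobase of transcript the members' order was the same in both female groups. Natural females had 148 CPM per kb of A1bg, 44.3 of Acot3, 23.2 of Hao2 and 5.41 of Atp6v0d2, and IVF females had 361, 64.7, 39.6 and 18.3. In males the order differed: Acot3 (1.74 CPM per kb in natural and 3.22 in IVF males) and Atp6v0d2 (1.49 and 0.286) stood above Hao2 (0.102 and 0.111) and A1bg (0.011 and 0.0465). So the member of highest level in females had the lowest level in males. In bulk liver, fewer cells that express a gene and less RNA per cell cannot be told apart.

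Conception by IVF was the comparison the study was designed for, and no member passed its test in either sex. In females 0 of 4 members were called by edgeR's quasi-likelihood test with Benjamini-Hochberg adjustment, as were 0% of all 13204 genes, and 488 genes (3.7%) had an unadjusted p under 0.05. Other tools called 4 genes (DESeq2, 0.0303%) and 0 (limma voom, 0%), none of them a member. A1bg and Atp6v0d2 were the members among the 488. For A1bg the IVF mean was 2.44-fold the natural mean on the fitted scale (log2 1.29 ± 0.475 SE, unadjusted p = 0.0192 and adjusted p = 1 by edgeR), and the groups overlapped. That value rests on IVF female replicate 2, without which the log2 difference was 0.427. For Atp6v0d2 the IVF level was 3.4-fold the natural one (log2 1.77 ± 0.585 SE, unadjusted p = 0.011, adjusted p = 1 by edgeR), higher in 3 of 3 IVF libraries than in any natural one. Leaving out each library in turn gave 1.48 to 2.05 for this Atp6v0d2 difference. The sex difference after IVF that chose Atp6v0d2 uses the same IVF females, so its p-value here is not free of the choice. Groups without overlap were found for 1 of the 4 members and for 7.42% of all genes.

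For Hao2 in females the log2 difference was 0.78 ± 0.407 SE (unadjusted p = 0.0803 by edgeR) and for Acot3 it was 0.55 ± 0.594 (unadjusted p = 0.375 by edgeR), both with overlapping groups and an adjusted p of 1. Leaving out each library in turn gave 0.285 to 1.1 for Hao2, lowest without IVF female replicate 2 and highest without natural female replicate 2. For Acot3 it gave 0.246 to 1.18, lowest without IVF female replicate 2 and highest without natural female replicate 3. The same library was thus the highest of the IVF females for A1bg, Hao2 and Acot3, and the lowest of them for Atp6v0d2. The median over all genes was -0.0148, and the 4 members lay above it in females. The sex difference that chose the members uses the same IVF female libraries, so nothing is read from their place above the median.

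In males only Atp6v0d2 and Acot3 had more than 9 counts in any library, and 0 of these 2 were called by edgeR, beside 0.00757% of all genes (1 gene), and 355 genes (2.69%) had an unadjusted p under 0.05. DESeq2 called 5 genes (0.0379%) and limma voom 0 (0%), none of them a member. Atp6v0d2 had an IVF level 5.29-fold under the natural one (log2 -2.4 ± 0.689 SE, unadjusted p = 0.00463, adjusted p = 1 by edgeR and 0.201 by DESeq2). Natural male replicate 1 lay within the IVF range, and without natural male replicate 3 the log2 value was -1.76. As in females, the p-values of Atp6v0d2 are not free of the choice, which used the same IVF males. Acot3 stood at log2 0.89 ± 0.618 SE (unadjusted p = 0.177 by edgeR), with an adjusted p of 1. Acot3 moved to 1.56 without natural male replicate 1 and to 0.425 without natural male replicate 3. A1bg gives no fold in males, since all 6 libraries were at or under the floor. Hao2 had 2 to 9 counts in male libraries, near the floor, so no IVF difference is read from them. Groups without overlap were found for 0 of the 2 genes and for 8.91% of all genes.

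**Figure D2:**
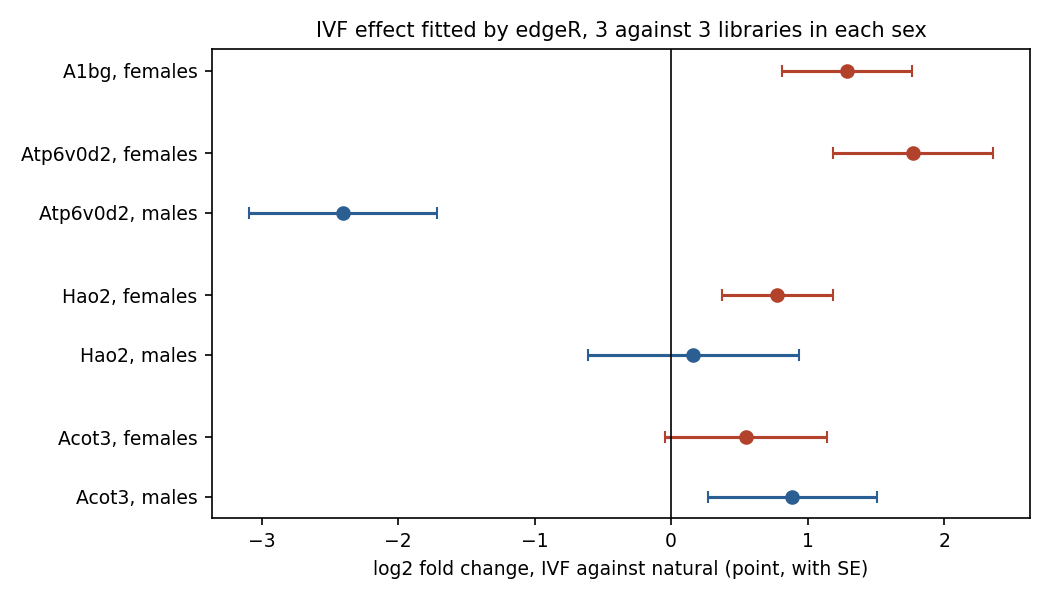
Log2 difference between IVF and natural conception for each member in females and in males, with bars of 1 standard error from edgeR (red for females, blue for males), a line at 0, and A1bg in males left out because its libraries are at or under 3 counts. Atp6v0d2 lies at 1.77 in females and -2.4 in males, Acot3 lies above 0 in both sexes, and the Hao2 point for males rests on 2 to 9 counts per library.

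The IVF difference of Atp6v0d2 had opposite signs in the sexes, at log2 1.77 in females and -2.4 in males. The gap between them was -4.17 ± 0.904 (SE), and leaving out each library in turn gave -4.65 to -3.52. This gap is the same quantity as the sex difference after IVF (-6.01) minus that after natural conception (-1.84), the values on which the members were chosen, so it is given as a description with no test. For Acot3 the gap was 0.34 ± 0.852 (SE). Averaged over both sexes the IVF difference was -0.32 ± 0.441 for Atp6v0d2 and 0.72 ± 0.429 for Acot3 (SE, adjusted p of 1 by edgeR for each), beside 1 gene called among all (0.00757%).

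Macrophage markers are given beside Atp6v0d2 because the gene is known from those cells. The 8 Kupffer cell and macrophage markers were all detected and summed to 298 to 396 CPM in natural females, 308 to 448 in IVF females, 269 to 305 in natural males and 144 to 230 in IVF males. The sum thus overlapped between the female groups and was lower in IVF males than in natural males, and 0 of the 8 were called for IVF in either sex by edgeR. Clec4f and Vsig4, both Kupffer cell surface receptors, were called lower in IVF males than in IVF females, Vsig4 by log2 -1.81 (adjusted p = 0.0039 by edgeR) and Clec4f with an adjusted p of 0.0215 by edgeR. Over all genes 1.28% were called lower in IVF males than in IVF females. Sums of 8 hepatocyte markers (80800 to 90600 against 97800 to 103000 CPM) and 6 endothelial markers (155 to 170 against 171 to 196) were also lower in IVF than in natural males. Those of stellate cells and fibroblasts (175 to 248 against 187 to 255 CPM) and cholangiocytes (24 to 39.2 against 27.9 to 57.6) overlapped between these groups. So did those of neutrophils (1.1 to 3.98 against 1.23 to 3.16 CPM) and lymphocytes (0.886 to 3.45 against 0.868 to 1.54). A list of 9 markers of osteoclast-like or lipid-associated macrophages summed to 94.7 to 148, 89.9 to 133, 134 to 143 and 113 to 151 CPM in the same order, with Calcr, the calcitonin receptor, at 0 in all females. Acp5, an acid phosphatase of osteoclasts and macrophages, made up most of that sum. The part of these cells in the Atp6v0d2 difference was not tested.

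**Figure D3:**
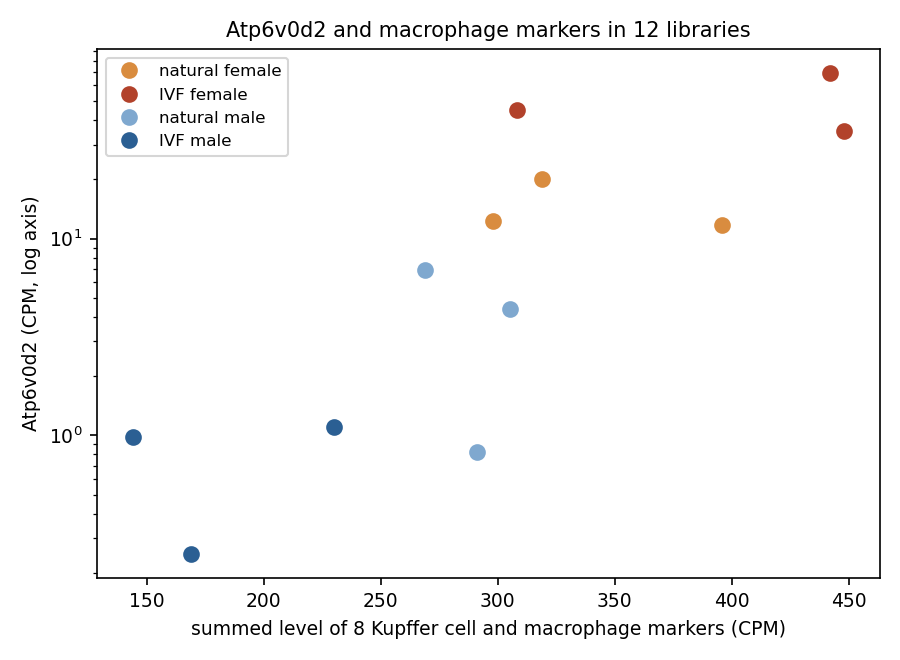
Atp6v0d2 level of each of the 12 libraries in TMM-scaled CPM (log axis) against the summed CPM of the 8 Kupffer cell and macrophage markers, with 1 point per library coloured by group. IVF females lie highest for Atp6v0d2 at marker sums (308 to 448 CPM) that overlap those of natural females (298 to 396), and IVF males have the lowest sums (144 to 230) with Atp6v0d2 at 0.25 to 1.1 CPM.

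Among the other genes of the proton pump none passed a test. Of 25 listed V-ATPase subunit genes, 18 besides Atp6v0d2 were tested, and 0 were called in any IVF or sex comparison by edgeR. Their median log2 difference was 0.28 for males against females after natural conception, where 4 had an unadjusted p under 0.05, and 0.23 after IVF, where 1 did. Over all genes the medians were -0.024 and 0.00772, and 14.9% had an unadjusted p under 0.05 for sex in each mode. Atp6v0d1, which encodes the widespread d subunit, was at 40.1 ± 13.2, 37.9 ± 13, 57 ± 6.11 and 53.7 ± 3.17 CPM in natural females, IVF females, natural males and IVF males (SD, n = 3 each). Its log2 difference between males and females was 0.50 in each mode, with adjusted p-values of 0.438 and 0.455 by edgeR. Of 22 lysosomal genes, which serve the compartment that the pump acidifies, 0 were called for IVF in either sex by edgeR, and 0 had an unadjusted p under 0.05 for it. The most abundant of the list per kilobase, Lamp1 and Psap, were not called for IVF or sex.

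None of the relatives of Acot3 passed a test, although most had lower fitted values in males. Of 17 listed acyl-CoA thioesterases, 14 besides Acot3 were tested and 0 were called in any comparison by edgeR, with 5 at an unadjusted p under 0.05 for sex after natural conception and 3 after IVF, beside 14.9% of all genes in each. The log2 difference of males against females was above 0 for 5 of the 14 after natural conception and for 3 after IVF, with medians of -0.32 and -0.68. Acot1, Acot2 and Acot4, neighbours of Acot3 that encode related thioesterases of cytosol, mitochondria and peroxisomes, had values of -1.48, -1.63 and -1.24 after natural conception, with adjusted p-values of 0.511, 0.247 and 0.186 by edgeR. Acot5, the next gene downstream, had at most 40 counts in females and 2 in males, and its adjusted p was 0.052 after natural conception by edgeR. Among natural males, Acot1 (77.7, 11.9 and 4.74 CPM) and Acot2 (22.2, 6.44 and 2.53 CPM) had the same order of replicates as Acot3. Acot1 and Acot2 share 50-base words with each other (13.6% of those of Acot1), so their values are uncertain in the same way.

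PPAR-alpha, the fatty acid receptor that switches on peroxisomal genes, has Acot3 among its known targets. Of 24 other targets tested, 1 was called for sex after natural conception and 2 after IVF by edgeR, beside 1.77% and 2.19% of all genes. Abcd2, a peroxisomal fatty acid transporter, was lower in males by log2 -7.11 after natural conception and -4.15 after IVF. It was also the single gene of any list called for IVF. Cidec, a lipid droplet protein, was higher in IVF males than in IVF females by log2 1.93 ± 0.433 (SE, adjusted p = 0.0424 by edgeR), a call lost in 11 of 15 alternatives. The abundant target Fabp1 was not called, and Acot3 itself had the values given above.

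Hao1, the sister of Hao2 that oxidizes glycolate in liver, had its higher means in males. Its level was 130 ± 26.8, 140 ± 47.8, 202 ± 38.2 and 210 ± 6.31 CPM in natural females, IVF females, natural males and IVF males (SD, n = 3 each). The log2 difference of males against females was 0.64 after natural conception and 0.58 after IVF (adjusted p = 0.278 and 0.321 by edgeR). Of 13 genes of peroxisomal oxidases and 2-hydroxy acid enzymes besides Hao2, 1 was called, Hacl1, a peroxisomal lyase that acts on 2-hydroxyacyl-CoA. It was lower in IVF males than in IVF females by log2 -1.06 ± 0.244 (SE, adjusted p = 0.0481 by edgeR), and that call was lost in 11 of 15 alternatives. Of all genes, 1.28% were called lower in that comparison. Of 16 genes of peroxisome assembly 0 were called in any comparison by edgeR, with 1 at an unadjusted p under 0.05 for sex after natural conception and 0 after IVF, beside the same 14.9%. Kidney also expresses Hao2, and 8 kidney tubule markers summed to at most 1.8 CPM in any library, with Umod at 0.

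For A1bg the list held CRISP proteins, some of which are known to bind it in plasma, and immune receptors with like domains. Only 4 of the 10 genes listed passed the filter, and the CRISP genes Crisp1 and Crisp3 had 0 counts in every library. Lilra5, an immune receptor, was lower in IVF males than in IVF females by log2 -1.3 ± 0.275 (SE, adjusted p = 0.0303 by edgeR), and 8 of 15 alternatives lost the call. The share of all genes called lower there was 1.28%.

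**Figure D4:**
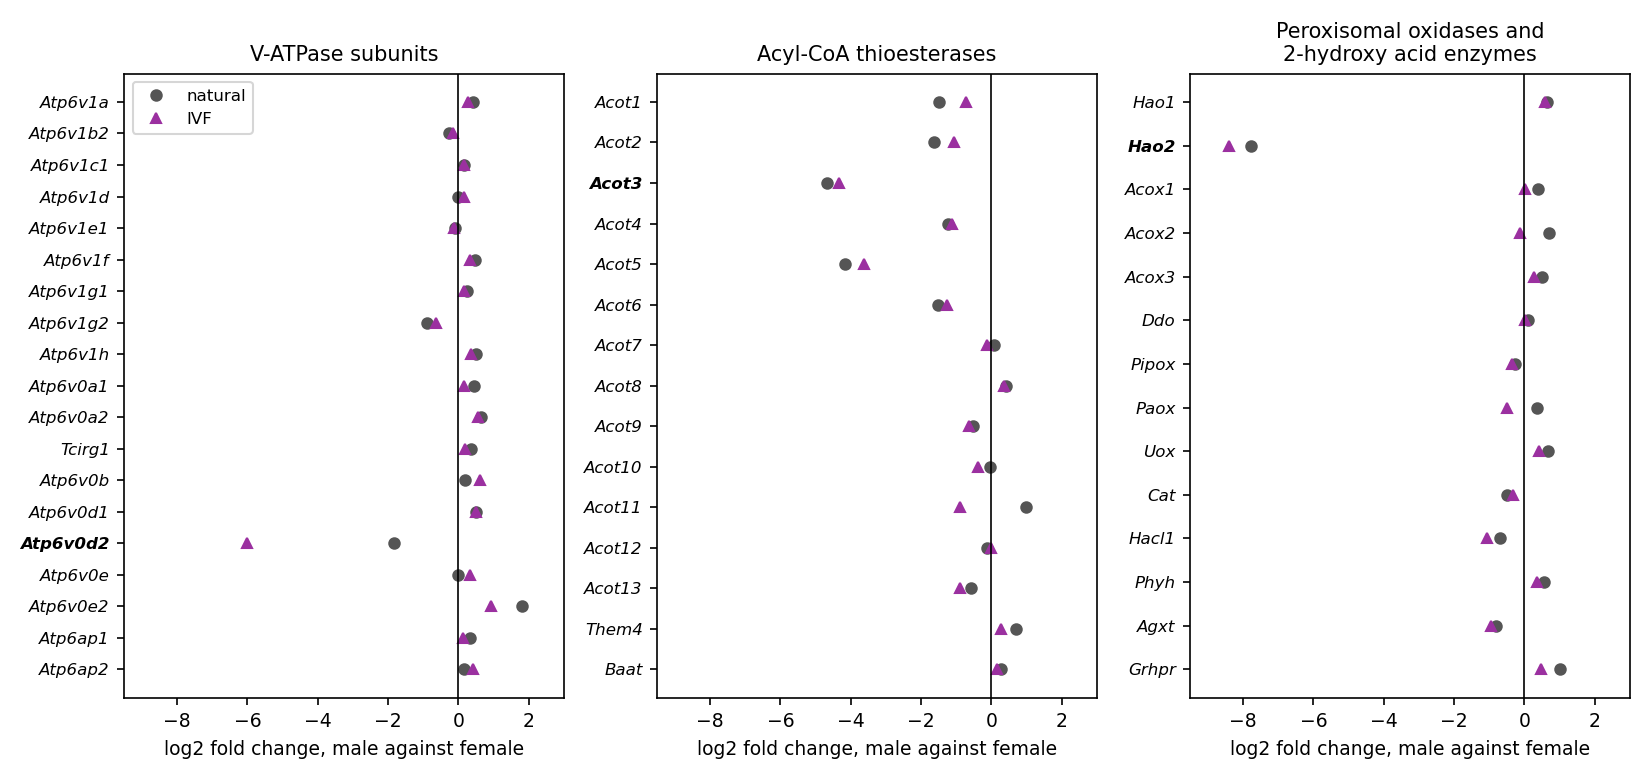
Log2 difference of males against females after natural conception and after IVF for each tested V-ATPase, thioesterase and peroxisomal oxidase or 2-hydroxy acid enzyme gene, with circles for natural conception, triangles for IVF and the members in bold. Atp6v0d2, Acot3 and Hao2 have the lowest value of their panel in both modes, and the Acot5 value rests on at most 2 counts in any male library.

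The regulators of sex-biased liver genes are listed with the members because they act on that route. Of 19 tested, 4 were called lower in males after natural conception and 5 after IVF by edgeR, beside 0.879% and 1.28% of all genes. The list was made of sex-biased regulators and hormone receptors with earlier results of these data known, so nothing is read from these counts. For IVF 0 of the 19 were called, beside 0% of all genes in females and 0.00757% in males. Cux2 was at 19.9 ± 17.1 and 27.5 ± 16.6 CPM in natural and IVF females and at 0.182 ± 0.057 and 0.243 ± 0.173 in natural and IVF males (SD, n = 3 each; adjusted p = 0.00139 and 0.00119 by edgeR). Tox, a nuclear factor, was lower in males by log2 -2.87 and -2.84, and Prlr, the prolactin receptor, by -2.51 and -2.25. Trim24, a cofactor of nuclear receptors, was lower by -1.79 and -2.37, and the call after natural conception was lost without natural male replicate 2 or 3. Esr1, the estrogen receptor alpha, was lower in IVF males than in IVF females by log2 -2.35 ± 0.23 (SE, adjusted p = 0.000175 by edgeR), and its difference after natural conception was -0.62 ± 0.22 (SE, adjusted p = 0.206 by edgeR). The difference between these 2 values, the Esr1 interaction, had an adjusted p of 0.878 by edgeR.

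The genes whose pattern was most like each member over the 12 libraries were found by Pearson's r of log2 CPM among 11812 genes of at least 1 CPM on average. For A1bg they were the sulfotransferases Sult2a2 (r = 0.994), Sult2a1 (0.992) and Sult3a1 (0.99), and for Hao2 they were Sult3a1 (0.998), the transporter Slc22a27 (0.993) and Sult2a6 (0.992). For Acot3 they were Naip2 (0.956), Hao2 (0.955) and Cux2 (0.954). Atp6v0d2 was most like Esr1 (0.954), Dhrs7 (0.949) and Txndc16 (0.949). Esr1 had 34.2 ± 5.76, 70 ± 3.79, 22.3 ± 4.79 and 13.8 ± 3.13 CPM in natural females, IVF females, natural males and IVF males (SD, n = 3 each), the same order of groups as Atp6v0d2. The r values of A1bg, Hao2 and Acot3 rest mainly on the gap between the sexes, and all points share library depth. For Atp6v0d2, the genes Esr1, Dhrs7 and Txndc16 had small sex gaps after natural conception (log2 -0.62, -0.572 and -0.331). Their gaps after IVF were larger (-2.35, -1.35 and -1.49), so these r values rest in large part on the IVF groups.

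With each group's mean removed over the same 12 libraries, the genes most like each member were mostly different ones. Male libraries held at most 3 counts of A1bg and 9 of Hao2, so for these members part of r rests on values near the floor. The genes named are the highest of 11812 and were not tested. A1bg was then most like Gadd45b (0.853), Fdx1l (0.835) and Rnf41 (0.834), and Atp6v0d2 most like Copz2 (0.951), Cxcl14 (0.94) and Sowahb (0.932). Hao2 was most like Scp2 (0.934), which encodes a peroxisomal sterol carrier protein and thiolase, then Phf7 (0.919) and Sult3a1 (0.898). Acot3 was most like Arl5a (0.932), Pi4k2b (0.907) and 3110002H16Rik (0.905). Sult3a1 is the single gene that stood among the 3 most like Hao2 both ways.

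Among the 6 female libraries alone, none of the 6 pairs of members passed a test of correlation. The highest Pearson r was 0.668 between Hao2 and Acot3 (rho = 0.6, two-sided exact permutation p = 0.14, adjusted p = 0.584), and it was -0.117 without the 2 libraries farthest from the Hao2 median. A1bg and Hao2 had r = 0.633 (rho = 0.257, exact permutation p = 0.212, adjusted p = 0.584), and -0.0894 without the 2 farthest, so both values rest on those libraries. A1bg and Acot3 had r = 0.506 (rho = 0.314, exact permutation p = 0.347, adjusted p = 0.584), which turned to -0.648. Atp6v0d2 had r = 0.382 with A1bg (rho = 0.486, exact permutation p = 0.529, adjusted p = 0.635), 0.443 with Hao2 (rho = 0.543, p = 0.389, adjusted p = 0.584) and 0.139 with Acot3 (rho = 0.0857, p = 0.81, adjusted p = 0.81). Without the 2 farthest libraries these became 0.694, 0.773 and 0.909, and within the groups, after the mean of each was removed, they were -0.605, -0.21 and -0.72.

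The chromosomal neighbours of the members were compared to see whether the sex difference extended along the chromosome. Of the 40 nearest protein-coding genes, 5 on each side of each member, 25 were tested, and called genes lay only beside Hao2. By edgeR 3 were called higher in males after natural conception and 2 after IVF, beside 0.894% and 0.909% of all genes. Those genes were members of the Hsd3b cluster, which encodes 3-beta-hydroxysteroid dehydrogenases, and all were higher in males, opposite to Hao2. Hsd3b5, 256 kb below Hao2 on the chromosome by start position, had 1.93, 2.28 and 0.232 CPM in natural females, 20.2, 1.83 and 8.98 in IVF females, 195, 223 and 217 in natural males and 232, 246 and 245 in IVF males. Males were thus far above females in every library, by log2 7.21 ± 0.877 after natural conception and 4.6 ± 0.759 after IVF (SE, adjusted p = 0.000987 and 0.00759 by edgeR). Hsd3b2 was higher in males by log2 1.96 ± 0.283 and 1.77 ± 0.281 (SE, adjusted p = 0.00386 and 0.00622 by edgeR). For Hsd3b3 the difference was 1.95 ± 0.413 after natural conception (SE, adjusted p = 0.036 by edgeR), a call lost in 9 of 15 alternatives, and 0.37 after IVF (adjusted p = 0.736 by edgeR). Hsd3b6 and Hsd3b1, the nearest to Hao2, were not called. Sequence shared between the Hsd3b genes was not measured, so whether reads were split between them is not known.

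**Figure D5:**
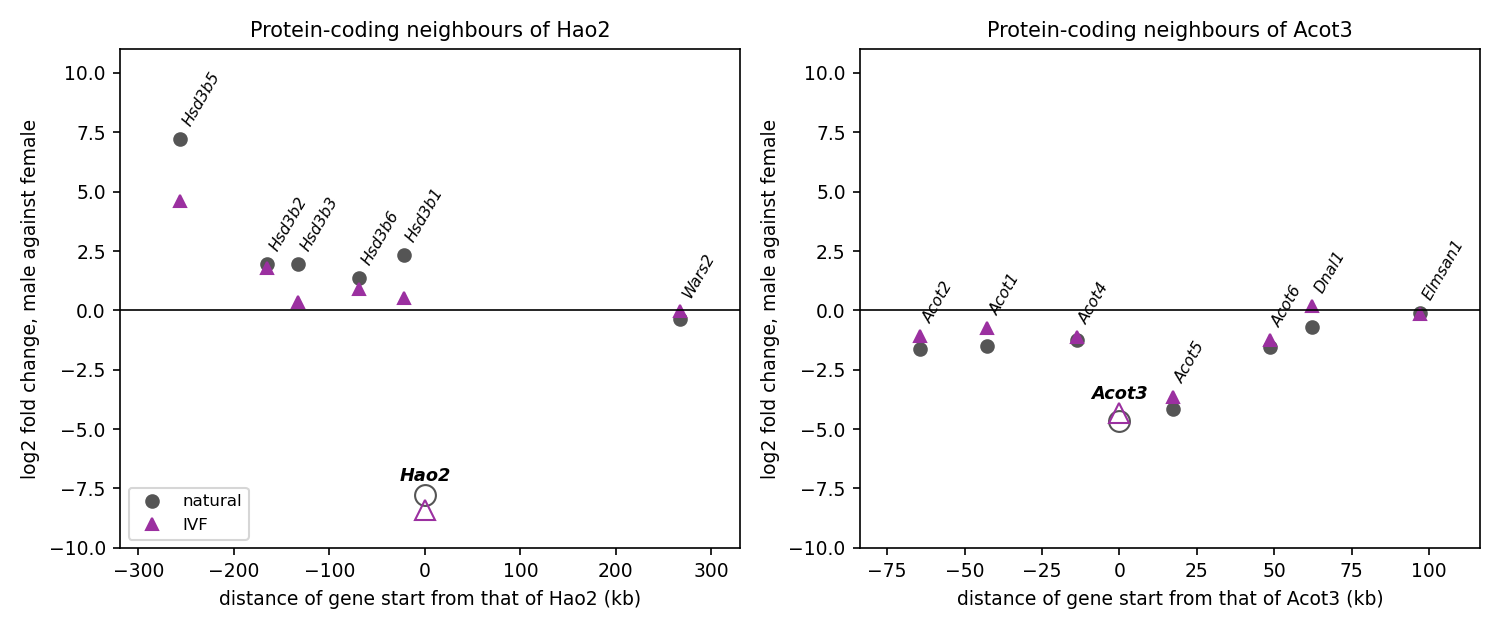
Log2 difference of males against females for Hao2 and Acot3 (open symbols) and their tested protein-coding neighbours against distance between gene starts in kb, with circles for natural conception and triangles for IVF. Hsd3b5 lies at 7.21 and 4.6 on the other side of 0 from Hao2, and all Acot neighbours lie below 0 with Acot3.

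Around A1bg 4 of 10 neighbours were tested, around Atp6v0d2 6 and around Acot3 7, and 0 were called in any comparison by edgeR. Those of Acot3 include the thioesterases Acot1, Acot2, Acot4 and Acot5 described above, and Acot6, at log2 -1.52 for males against females after natural conception (adjusted p = 0.176 by edgeR). The neighbours of A1bg lie far off, with Fam84b at -77.9 kb the nearest.

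Female-biased liver families of drug and steroid metabolism give a scale for the members. All 9 sulfotransferase genes listed, which add sulfate to steroids and bile acids, passed the filter. Of these, 8 were called lower in males after natural conception and 9 after IVF by edgeR, beside 0.879% and 1.28% of all genes. They were listed as female-biased with earlier results of these data known, so nothing is read from the count. Among the flavin monooxygenases, Fmo2 was called lower in males by log2 -1.87 ± 0.398 after natural conception and -2.76 ± 0.413 after IVF (SE, adjusted p = 0.0367 and 0.00399 by edgeR). No gene of either family was called for IVF by edgeR, with 2 sulfotransferases at an unadjusted p under 0.05 in females, beside 3.7% of all genes.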

How the data were processed

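Bulk liver messenger RNA of 12 mice was sequenced after poly-A selection with a KAPA kit on an Illumina NextSeq, per the labels' protocols. The authors deposited raw read counts for each gene symbol in 1 table, whose columns were matched to samples by title. The submitters' processing notes name Trimmomatic 0.32, STAR 2.3.0e, featureCounts 1.5.0 and the build mm10, with no role or order. The annotation and the treatment of strand and of reads matching several genes are not given in the sources used here, which bears on A1bg and Acot3.

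Counts were analysed with edgeR 4.0.16 in R 4.3.3, using filterByExpr by group, TMM scaling and 1 quasi-likelihood model of the 12 libraries in which the 4 groups had their own means. The IVF groups were compared with the natural ones within each sex, as was the average of both effects, and the sexes were compared within each mode. The interaction equals the gap between the sex differences that chose the members, so it has no test for them, although one was planned. Genes with a Benjamini-Hochberg adjusted p under 0.05 over all 13204 genes were called, and at least 99.6% of a library's counts lay in the genes tested. No 2 libraries of the same group agreed within sampling noise, and pairs across groups were not compared. Log2 CPM used a prior count of 2. DESeq2 1.42.0 and limma 3.58.1 (voom) were alternatives. The fit was tested on simulated data. Positions come from GENCODE M21 and start regions from RefSeq. The members and gene lists were chosen with earlier results of these data known. Genes named are the members, the 3 most like each, called genes of the lists and neighbours, sister genes and the most abundant of a list. Some results are not reported here.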

Additional observations from a re-analysis of the deposited data

How the results depend on the processing

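Of 266 alternative values for the members' IVF differences, 257 kept direction and side of the threshold. The interaction of Atp6v0d2, given without a test because it is built from the values that chose the members, was -4.17 by DESeq2 too. Leaving out each library in turn turned the sign for Hao2 in males (-0.146 to 1.05, from 2 to 9 counts per library), the interactions of Acot3 (-0.294 to 1.01) and Hao2 (-0.93 to 0.266) and the average for Atp6v0d2 (-0.56 to 0.00281). The female correlations reversed without the 2 farthest libraries for A1bg with Hao2 (-0.0894) and Acot3 (-0.648) and for Hao2 with Acot3 (-0.117), and with group means removed for Atp6v0d2 with A1bg (-0.605), Hao2 (-0.21) and Acot3 (-0.72). Of 141 values for the members' sex differences, 140 kept theirs, and Hao2 after natural conception ranged from -8.66 to -7.47 over the libraries left out. Without natural male replicate 3, A1bg has 0 counts in natural males and gives no ratio.

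Counts of called genes moved with the tool. DESeq2 called 4 genes for IVF in females, 5 in males, 9 for the interaction, 4 for the average, 678 for sex after natural conception and 721 after IVF, and limma voom called 0 for IVF in males and 0 for the average. Against 234 genes for sex after natural conception, scaling by library size alone called 510 (88 higher and 422 lower in males, against 118 and 116) and fitting only the 6 libraries compared called 139. After IVF, library size alone called 92 higher and 221 lower, against 120 and 169. That scaling moved the median of all genes to -0.34 and -0.10 for sex after natural conception and IVF, 0.14 for IVF in males and 0.23 for the interaction. Leaving out each library in turn gave 111 to 263 for sex after natural conception (149, 142, 154, 126 and 111 without natural female replicate 1 and 2 and natural male replicates 1, 2 and 3), 137 to 348 after IVF (155, 189, 183 and 137 without IVF female replicate 2 and IVF male replicates 1, 2 and 3), 0 to 1 for IVF in males (0 without natural male replicate 2 or 3) and 0 to 1 for the average (0 without natural female replicate 1 or any natural male). The cause was not tested, except that leaving libraries out leaves fewer samples. No paired analysis was possible because the labels carry no replicate numbers, those used here follow accession order, and 1 title number alone is shared between groups. Depth limits A1bg and Hao2 in males, at no more than 9 counts per library.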
